A study of Mus musculus with 13 samples.

Results

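Plasma cell differentiation was followed through 10 genes, namely Sdc1, Prdm1, Xbp1, Mzb1, Irf4, Tnfrsf17, Derl3, Fkbp11, Jchain and Pou2af1. They were chosen by name, and their rows were found by matching the Ensembl identifiers of the count tables to symbols in GENCODE release M21. All 10 were found among the 49315 gene identifiers listed, and all 10 passed the filter on low counts in both comparisons. No measured value entered the rule, but the genes were chosen with earlier results of these data known.

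Plasma cells are the antibody-secreting end stage of the B cell lineage. A B cell that commits to this fate raises the transcription factors IRF4 and BLIMP-1 (the product of Prdm1), which shut down much of the B cell programme, and XBP1, which enlarges the endoplasmic reticulum (ER) and its folding and export machinery. In a lymph node, plasmablasts and short-lived plasma cells gather in the medullary cords, while germinal centres supply cells that leave for the bone marrow. Several of the genes are not restricted to this lineage. XBP1 and ER folding factors work in every secretory cell, syndecan-1 is abundant on epithelium, and IRF4 and BLIMP-1 also act in activated T cells, including regulatory T cells (Tregs).

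Bulk RNA sequencing was done on intact lymph nodes draining the tumour (tdLN) and on intact tumours in female mice carrying intradermal B16F10 tumours; B16F10 is a mouse melanoma cell line that makes pigment. The Foxp3ΔJag1 mice carried Foxp3eGFP-Cre-ERT2, a tamoxifen-inducible Cre recombinase expressed from Foxp3, and Jag1 fl/fl, so that deletion of the Notch ligand gene Jag1 is directed to Foxp3-expressing cells, chiefly Tregs. The Foxp3Ctrl mice are given as wild type in a sample label and as Jag1 fl/wt with the same Cre in the protocol, which leaves their genotype unsettled. Mice of both genotypes were given tamoxifen when 6 to 8 weeks old, as 5 doses of 0.1 mg per g of weight, then 9 days of rest and 200000 tumour cells in matrigel when 6 to 11 weeks old. The libraries were 3 Foxp3ΔJag1 tdLN, 3 Foxp3Ctrl tumours and 3 Foxp3Ctrl tdLN, and the names of the libraries tie each of these tumours to the mouse of a Foxp3Ctrl node. The 4 Foxp3ΔJag1 tumours in the labels were not analysed here. Every node and tumour carried the tumour model and tamoxifen, and no tumour-free node is among the samples. The 2 comparisons below share the Foxp3Ctrl nodes.

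Gene positions are on GRCm38. Levels are CPM, the reads of a gene per 1000000 of the library's total count, which was between 32117478 and 44540888. Tests are edgeR's quasi-likelihood test with p-values adjusted by Benjamini and Hochberg's method across every gene in the fit. The threshold is an adjusted p of 0.05, and a gene past that threshold is said to be called. Log2 fold changes are given ± SE, and means ± SD over 3 libraries. This SE is the absolute log2 fold change divided by the square root of the test's F statistic. Jag1 itself had 27.8, 20.7 and 23.8 CPM in Foxp3ΔJag1 nodes, against 22.0, 23.2 and 24.4 CPM in Foxp3Ctrl nodes, with a log2 fold change of 0.03 (edgeR adjusted p = 0.984). These counts sum over the whole gene in all cells of the node, so they do not separate the floxed part or the Foxp3-expressing cells. The nodes carried lymphocyte transcripts, with T cell genes summing to 1709 to 1972 CPM in Foxp3ΔJag1 nodes, 41.8 to 68.0 CPM in Foxp3Ctrl tumours and 1529 to 1971 CPM in Foxp3Ctrl nodes. Melanocyte genes summed to 18533 to 24314 CPM in tumours. Foxp3Ctrl node 3 stood apart from the other nodes, since epithelial genes summed to 14.0 to 19.1 CPM in Foxp3ΔJag1 nodes and to 18.8, 50.7 and 163 CPM in Foxp3Ctrl nodes 1, 2 and 3. The results in nodes are therefore given with it and then without it.

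The sequence just before a gene's start is where XBP1 and its partners can bind. The windows from 250 bases before to 50 bases after the RefSeq start, on GRCm38.p6, were available for 9 of the 10 genes, in 10 windows because Fkbp11 has 2 RefSeq starts here. XBP1 binds sequences with an ACGTG core, among them TGACGTGG, the unfolded protein response element. The ER stress response element is CCAAT, the site of NF-Y, then 9 bases of any kind, then CCACG, a site for ATF6 and XBP1. Both strands were searched, and ACGTG also lies within TGACGTGG. The windows of Jchain, Pou2af1, Derl3 and the second start of Fkbp11 are shown because they are those that hold ACGTG. They are written in the gene's direction, and capitals mark matches to any of these 3 motifs on either strand.
Jchain, chr5:88527848-88528147, minus strand: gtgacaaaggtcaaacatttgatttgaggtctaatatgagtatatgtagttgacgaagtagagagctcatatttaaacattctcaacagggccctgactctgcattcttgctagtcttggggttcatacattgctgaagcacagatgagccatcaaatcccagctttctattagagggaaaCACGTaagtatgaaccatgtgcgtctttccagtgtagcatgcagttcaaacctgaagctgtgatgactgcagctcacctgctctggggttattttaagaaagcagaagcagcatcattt
Pou2af1, chr9:51213440-51213739, plus strand: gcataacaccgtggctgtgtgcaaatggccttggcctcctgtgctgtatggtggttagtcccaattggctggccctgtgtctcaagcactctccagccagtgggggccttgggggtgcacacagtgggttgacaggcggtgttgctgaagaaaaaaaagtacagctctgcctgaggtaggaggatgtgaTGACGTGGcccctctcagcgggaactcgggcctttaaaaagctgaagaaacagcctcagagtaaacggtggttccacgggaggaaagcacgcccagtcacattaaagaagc
Derl3, chr10:75893148-75893447, plus strand: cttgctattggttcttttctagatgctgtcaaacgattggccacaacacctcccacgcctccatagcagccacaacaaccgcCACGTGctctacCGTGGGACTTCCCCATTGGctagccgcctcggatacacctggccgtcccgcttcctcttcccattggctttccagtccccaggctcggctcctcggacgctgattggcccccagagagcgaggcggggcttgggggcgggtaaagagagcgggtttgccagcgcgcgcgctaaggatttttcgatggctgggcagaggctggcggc
Fkbp11, chr15:98727578-98727877, minus strand: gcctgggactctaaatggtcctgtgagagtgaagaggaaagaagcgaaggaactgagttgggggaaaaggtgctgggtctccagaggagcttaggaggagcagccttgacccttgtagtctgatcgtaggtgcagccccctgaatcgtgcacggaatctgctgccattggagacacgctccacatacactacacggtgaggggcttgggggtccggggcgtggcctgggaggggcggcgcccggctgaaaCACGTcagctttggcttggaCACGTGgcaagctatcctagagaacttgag
ACGTG was present in 4 of the 10 windows, and in 19.6% of all 32851 windows of this length. TGACGTGG was in 1 window, that of Pou2af1 at bases 190 to 197, and in 0.676% of all windows. The full ER stress response element was in 1 window, that of Derl3, read on the opposite strand at bases 95 to 113, and in 0.119% of all windows. The octamer ATGCAAAT, which OCT factors bind together with the product of Pou2af1, was in none of the 10 and in 1.74% of all windows. Of these 4 genes, Jchain, Pou2af1 and Derl3 were lower in tumours than in nodes and Fkbp11 was higher, as given below.

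The first comparison asks whether deleting Jag1 in Foxp3-expressing cells goes with a different plasma cell programme in the draining node. Each of the 10 genes had a lower mean in Foxp3ΔJag1 nodes than in Foxp3Ctrl nodes, but none was called, and in none did the 2 groups of nodes separate. Log2 fold changes lay between -0.50 for Sdc1 and -0.08 for Irf4, with a median of -0.39, against a median of -0.0045 over the 18440 genes tested. Of all genes tested, 0.038% were called and 7.29% had groups that did not overlap. An unadjusted p under 0.05 was found for 0 of the 10, against 3.15% of all genes tested, and DESeq2 and limma-voom also called 0. In bulk tissue, a change in plasma cell number and a change in RNA per plasma cell cannot be told apart. Neither was shown here, since the 2 groups of nodes overlapped for all 10 genes.

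**Figure D1:**
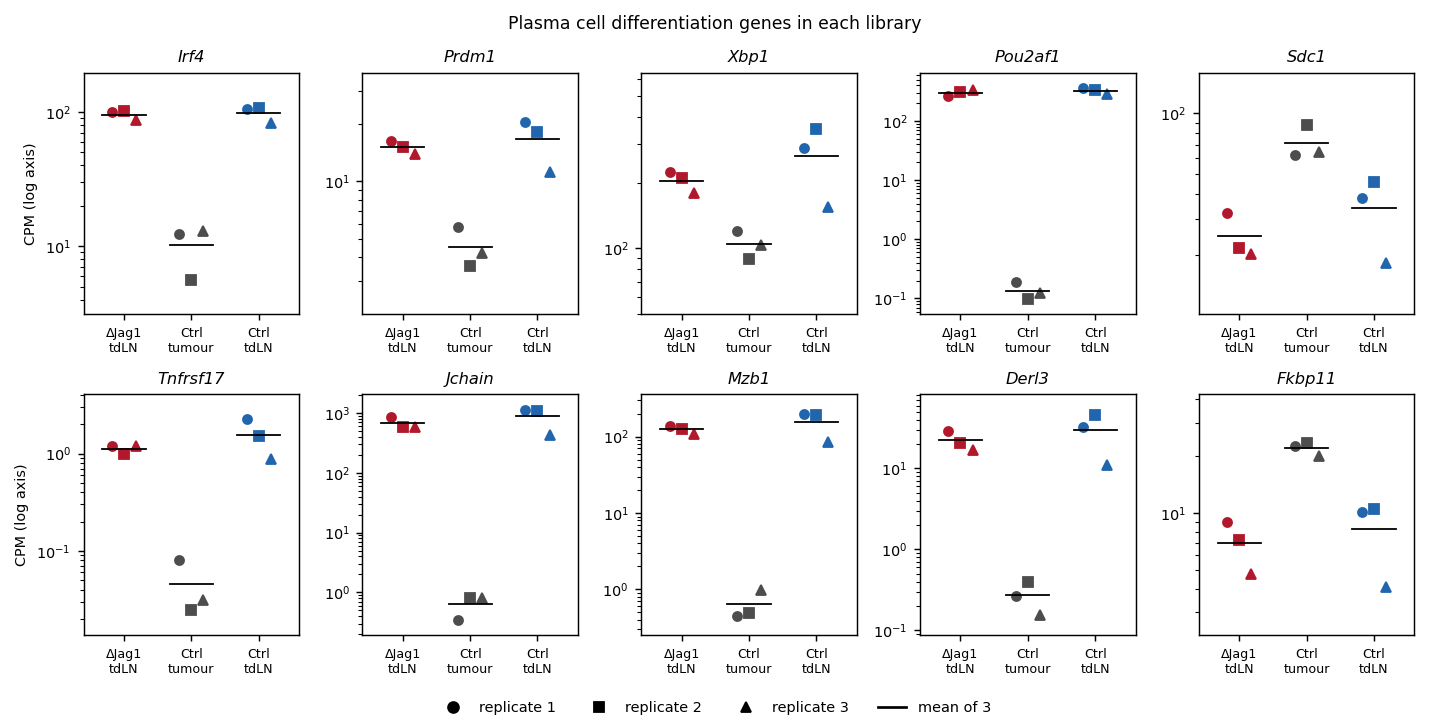
CPM of each plasma cell gene in each library, on a log axis, with Foxp3ΔJag1 nodes, Foxp3Ctrl tumours and Foxp3Ctrl nodes from left to right; points are libraries and bars are group means. The Foxp3ΔJag1 and Foxp3Ctrl nodes overlap for every gene, while Jchain, Pou2af1, Mzb1, Derl3 and Tnfrsf17 lie below 1 CPM in all 3 tumours and Sdc1 and Fkbp11 lie above the nodes there.

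Among the transcription factors, Irf4 (ENSMUSG00000021356, chromosome 13, 30749226 to 30766976), which at high level commits B cells to the plasma cell fate, had 99.3, 101 and 86.4 CPM in Foxp3ΔJag1 nodes, against 106, 108 and 83.4 CPM in Foxp3Ctrl nodes. The groups overlapped, with the lowest value in Foxp3Ctrl node 3, and the log2 fold change was -0.08 ± 0.12 (edgeR adjusted p = 0.956). Prdm1 (ENSMUSG00000038151, chromosome 10, 44437177 to 44528501), whose product BLIMP-1 represses B cell genes, had 16.4, 15.1 and 14.0 CPM in Foxp3ΔJag1 nodes, against 20.6, 18.2 and 11.2 CPM in Foxp3Ctrl nodes. The Foxp3ΔJag1 nodes lay within the span of the controls, and the log2 fold change was -0.17 ± 0.22 (edgeR adjusted p = 0.954). Xbp1 (ENSMUSG00000020484, chromosome 11, 5520659 to 5525893), the driver of ER expansion, had 224, 211 and 180.3 CPM in Foxp3ΔJag1 nodes, against 290.1, 354 and 155 CPM in Foxp3Ctrl nodes. Here too Foxp3Ctrl nodes 1 and 2 lay above and node 3 below all Foxp3ΔJag1 nodes, with a log2 fold change of -0.41 ± 0.33 (edgeR adjusted p = 0.953). Pou2af1 (ENSMUSG00000032053, chromosome 9, 51213708 to 51240080), a B cell coactivator of OCT factors that is present before and after the switch to secretion, had 259.5, 313 and 327 CPM in Foxp3ΔJag1 nodes, against 356, 334 and 282 CPM in Foxp3Ctrl nodes. It is the only gene of the 10 with its lowest node among the Foxp3ΔJag1 animals, and its log2 fold change was -0.14 ± 0.13 (edgeR adjusted p = 0.953). A sense intronic gene, Gm47828, overlaps Pou2af1 and had at most 59 counts in a library.

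At the cell surface, Sdc1 (ENSMUSG00000020592, chromosome 12, 8771323 to 8793715), which encodes syndecan-1 or CD138, the usual sorting marker of plasma cells, had 32.1, 21.6 and 20.1 CPM in Foxp3ΔJag1 nodes, against 38.1, 45.7 and 18.2 CPM in Foxp3Ctrl nodes. Foxp3Ctrl node 3 was again the lowest of the 6, and the log2 fold change was -0.50 ± 0.41 (edgeR adjusted p = 0.953). Tnfrsf17 (ENSMUSG00000022496, chromosome 16, 11313812 to 11320074), which encodes BCMA, the receptor through which APRIL keeps plasma cells alive, had 1.20, 0.995 and 1.19 CPM in Foxp3ΔJag1 nodes, against 2.26, 1.51 and 0.874 CPM in Foxp3Ctrl nodes. It was the scarcest of the 10 in nodes, and its log2 fold change was -0.48 ± 0.35 (edgeR adjusted p = 0.953).

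The secretory genes had their lowest node in the same animal. Jchain (ENSMUSG00000067149, chromosome 5, 88519809 to 88527891), the joining chain of IgM and IgA polymers, had 853, 576 and 586 CPM in Foxp3ΔJag1 nodes, against 1141, 1081 and 424 CPM in Foxp3Ctrl nodes. Its log2 fold change was -0.43 ± 0.45 (edgeR adjusted p = 0.953), with Foxp3Ctrl node 3 below and the other controls above all 3 Foxp3ΔJag1 nodes. Mzb1 (ENSMUSG00000024353, chromosome 18, 35647267 to 35649367), an ER protein of marginal zone B cells and plasma cells that helps assemble IgM, had 139, 126 and 108 CPM in Foxp3ΔJag1 nodes, against 199, 189.6 and 84.4 CPM in Foxp3Ctrl nodes. Foxp3Ctrl node 3 was again the lowest, and the log2 fold change was -0.37 ± 0.37 (edgeR adjusted p = 0.953). Derl3 (ENSMUSG00000009092, chromosome 10, 75893413 to 75895941), a component of the pathway that removes misfolded proteins from the ER, had 29.2, 20.7 and 16.7 CPM in Foxp3ΔJag1 nodes, against 32.9, 45.9 and 11.2 CPM in Foxp3Ctrl nodes. Its Foxp3Ctrl mean of 30.0 ± 17.5 CPM had the largest SD relative to its size among the 10, and the log2 fold change was -0.47 ± 0.59 (edgeR adjusted p = 0.953). Fkbp11 (ENSMUSG00000003355, chromosome 15, 98724366 to 98728198), a prolyl isomerase of secretory cells, had 9.03, 7.21 and 4.76 CPM in Foxp3ΔJag1 nodes, against 10.2, 10.5 and 4.09 CPM in Foxp3Ctrl nodes. Its log2 fold change was -0.28 ± 0.41 (edgeR adjusted p = 0.956), and the lowest node was again Foxp3Ctrl node 3.

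The 10 genes varied widely among the Foxp3Ctrl nodes. Over all genes tested, Foxp3Ctrl node 2 was most often the lowest of the 6 nodes, for 32.9%. Foxp3Ctrl node 3 was the lowest of the 6 nodes for 9 of the 10 genes, against 15.0% of all genes tested, and the highest node was Foxp3Ctrl node 1 for 5 genes and Foxp3Ctrl node 2 for the other 5. Foxp3Ctrl nodes 1 and 2 both lay above all 3 Foxp3ΔJag1 nodes for 10 of the 10 genes, against 12.0% of all genes tested. That pair leaves out the node that was lowest for 9 of these same genes, so the count is no test of genotype. The mean of Foxp3Ctrl nodes 1 and 2 stood above Foxp3Ctrl node 3 by 3.52-fold for Derl3, 2.62-fold for Jchain, 2.535-fold for Fkbp11 and 2.30-fold for Mzb1 and for Sdc1. The gap was 2.15-fold for Tnfrsf17, 2.075-fold for Xbp1, 1.74-fold for Prdm1, 1.28-fold for Irf4 and 1.22-fold for Pou2af1. Pou2af1, which B cells express before they differentiate, and Irf4 had the smallest gaps, and the secretory genes Derl3 and Jchain the largest. The median log2 ratio of Foxp3Ctrl node 3 to the other controls was -1.15 over the 10 genes and 0.076 over all genes tested.

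**Figure D2:**
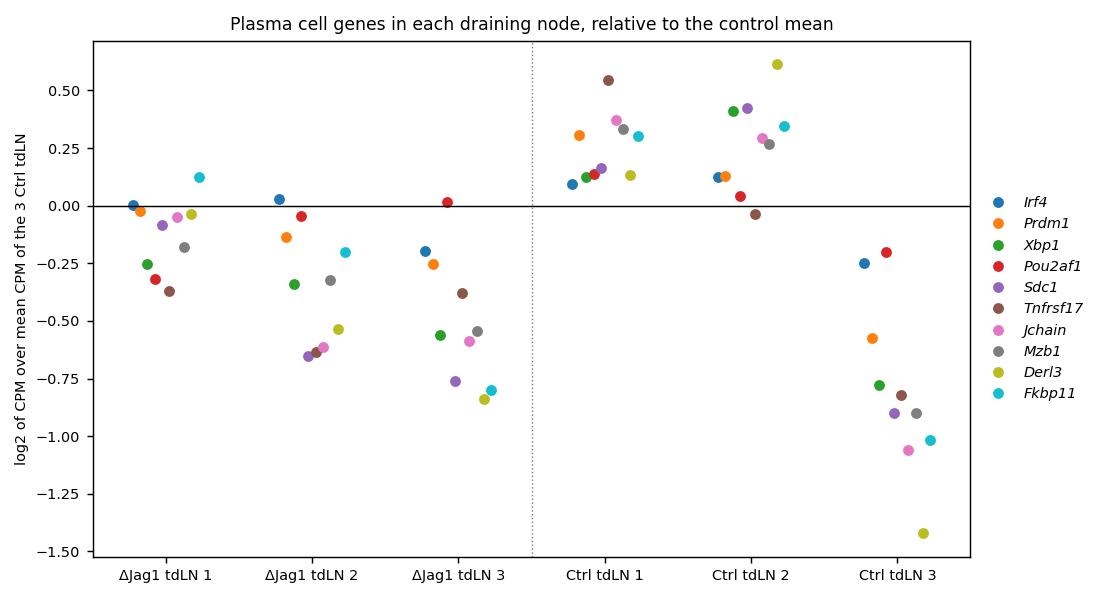
Log2 ratio of the CPM in each of the 6 nodes to the mean CPM of the 3 Foxp3Ctrl nodes, with 1 point per plasma cell gene and Foxp3ΔJag1 nodes left of Foxp3Ctrl nodes. Foxp3Ctrl node 3 holds the lowest point of 9 of the 10 genes, while in Foxp3Ctrl nodes 1 and 2 each gene lies above its Foxp3ΔJag1 values.

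Other genes set Foxp3Ctrl node 3 apart in different ways. The 12 immunoglobulin constant genes had a median log2 ratio of -1.71 to the other controls, with 11 of 12 below 0. The 22 ER and secretory genes had -0.52, with 22 of 22 below 0. The 8 macrophage genes had -0.67, with 8 of 8 below 0 and all 8 lowest of the 6 nodes there, and a summed 547 CPM in Foxp3Ctrl node 3, against 983 and 736 CPM in Foxp3Ctrl nodes 2 and 1. The 15 mature B cell genes had 0.04, with 6 of 15 below 0, and the 9 T cell genes had 0.35. The epithelial genes went the other way, with 7 of 7 tested higher in Foxp3Ctrl node 3 than in the other controls. Krt19, a simple epithelial keratin, had 0.026, 0 and 0.135 CPM in Foxp3ΔJag1 nodes, against 0.523, 7.82 and 35.3 CPM in Foxp3Ctrl nodes 1, 2 and 3. Of the 10 epithelial genes, 1 to 3 were at 0 in each Foxp3ΔJag1 node and none in any Foxp3Ctrl node. Melanocyte genes, which mark the injected line, were also higher in Foxp3Ctrl node 3, with a median log2 ratio of 1.07 and 0 of 4 tested below 0. Their sum was 17.1, 16.6 and 13.4 CPM in Foxp3ΔJag1 nodes, against 10.8, 15.3 and 37.3 CPM in Foxp3Ctrl nodes, and Pmel, a melanosome protein gene, had 8.62, 8.08 and 5.46 CPM in Foxp3ΔJag1 nodes, against 4.68, 3.44 and 13.5 CPM in Foxp3Ctrl nodes. Dct and Tyrp1, pigment enzyme genes, had 7.95 and 1.78 CPM in Foxp3Ctrl node 3 and at most 0.286 CPM in any other node. The 9 niche genes had -0.48, with 6 of 9 below 0, the 8 plasmacytoid dendritic cell genes 0.20 and the 12 germinal centre genes 0.09. The part of these other cells in the plasma cell values was not tested.

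Without Foxp3Ctrl node 3, the 10 genes had a median log2 fold change of -0.69, and all 10 had an unadjusted p under 0.05, which 16.9% of the 18777 genes then tested also had. None of the 10 was called (0.112% of all genes were). Mzb1 came closest, at -0.69 (edgeR adjusted p = 0.0623), followed by Xbp1 at -0.70 (edgeR adjusted p = 0.115) and Jchain at -0.77 (edgeR adjusted p = 0.191). Without Foxp3Ctrl node 1 or node 2 in its place, the median was -0.15 or -0.12. No label or protocol gives a reason to drop Foxp3Ctrl node 3. It was the lowest node for 9 of the 10 genes, so p-values obtained without it are no test of genotype. The fit with all 6 nodes stands as the result.

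Related gene groups were read beside the 10, and edgeR called none of their members; 1 ER and secretory gene and 1 niche gene had an unadjusted p under 0.05. Of 22 further ER and secretory genes, 22 had a log2 fold change below 0, against 51.2% of all genes tested, with a median of -0.26. Foxp3Ctrl node 3 was the lowest of the 6 nodes for 19 of them. The highest was Foxp3Ctrl node 2 for 16 and Foxp3Ctrl node 1 for 6. The 22 signs rest on the same few libraries and are not independent, so their count is no test of genotype. Dnajc3, an ER cochaperone, had 150 ± 3.39 CPM in Foxp3ΔJag1 nodes and 172 ± 11.1 CPM in Foxp3Ctrl nodes, at -0.22 ± 0.08 (edgeR adjusted p = 0.953). Ell2, an elongation factor that favours the secreted form of immunoglobulin mRNA, had 46.6, 47.2 and 44.7 CPM in Foxp3ΔJag1 nodes, against 71.0, 69.2 and 42.3 CPM in Foxp3Ctrl nodes. It too was lowest in Foxp3Ctrl node 3, and its log2 fold change was -0.43 ± 0.21. Atf6, an ER stress sensor, had 70.3 ± 5.02 CPM in Foxp3ΔJag1 nodes and 82.4 ± 11.7 CPM in Foxp3Ctrl nodes.

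Among the 12 immunoglobulin constant genes, 4 were above and 8 below 0, with a median of -0.27. These genes are near-copies of each other in part, so reads may have been divided between them in counting. Ighg2c, the constant region of IgG2c, had 725, 657 and 471 CPM in Foxp3ΔJag1 nodes, against 3100, 2033 and 470.1 CPM in Foxp3Ctrl nodes, a log2 fold change of -1.64 ± 0.76. Foxp3Ctrl nodes 1 and 2 were the high libraries and node 3 was level with the lowest Foxp3ΔJag1 node. Igha, the constant region of IgA, had 393, 26.7 and 289 CPM in Foxp3ΔJag1 nodes, against 40.6, 62.5 and 12.1 CPM in Foxp3Ctrl nodes, a log2 fold change of 2.57 ± 1.23. The groups overlapped, since Foxp3ΔJag1 node 2 lay between the controls. Ighm had 2455 ± 234 CPM in Foxp3ΔJag1 nodes and 2805 ± 348 CPM in Foxp3Ctrl nodes. All 3 had an edgeR adjusted p of 0.953. Over the whole list the summed level was 15615, 13974 and 10538 CPM in Foxp3ΔJag1 nodes, against 18399, 24031 and 8009 CPM in Foxp3Ctrl nodes.

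**Figure D3:**
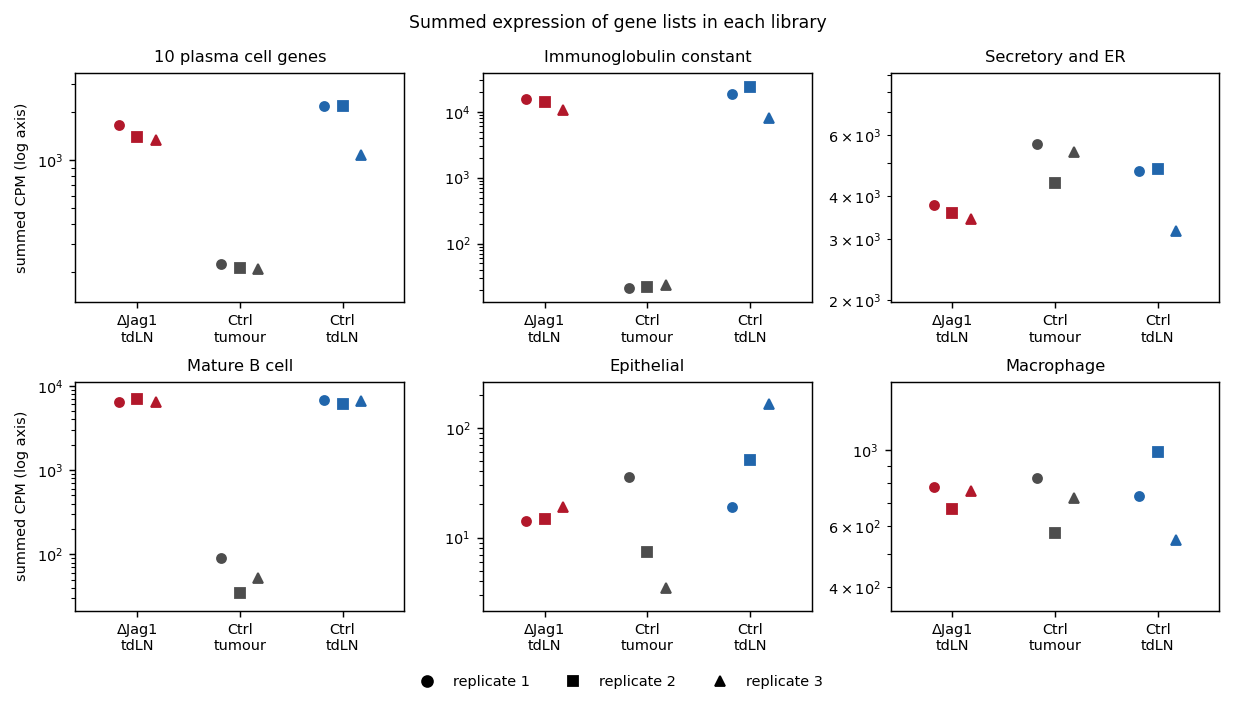
Summed CPM of gene lists in each library, on a log axis, with Foxp3ΔJag1 nodes, Foxp3Ctrl tumours and Foxp3Ctrl nodes from left to right. The plasma cell genes and the immunoglobulin constant genes are lowest in Foxp3Ctrl node 3 among the nodes, while the mature B cell genes lie between 6028 and 6922 CPM in all 6 nodes.

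The mature B cell genes were close to level between the groups, at 6435, 6922 and 6494 CPM summed in Foxp3ΔJag1 nodes, against 6793, 6028 and 6526 CPM in Foxp3Ctrl nodes, with 7 above and 8 below 0 and a median of -0.01. The smallest p there belonged to Blk, a B cell Src family kinase, at 143 ± 2.38 CPM in Foxp3ΔJag1 nodes and 155 ± 4.26 CPM in Foxp3Ctrl nodes. Cd37, a B cell surface protein, had a log2 fold change of 0.14. Of 12 germinal centre genes, 7 were above and 5 below 0, with a median of 0.05, and Mki67, a proliferation marker, had 179 ± 34.2 CPM in Foxp3ΔJag1 nodes and 205 ± 38.0 CPM in Foxp3Ctrl nodes. Basp1 had a log2 fold change of 0.13, and Nuggc, a germinal centre B cell gene, had 0.41. Of 12 other plasma cell surface and survival genes, 2 were above and 10 below 0, with a median of -0.05. Cd93, a surface protein that helps plasma cells persist, had 39.7 ± 3.04 CPM in Foxp3ΔJag1 nodes and 56.8 ± 19.3 CPM in Foxp3Ctrl nodes, at -0.55 ± 0.25. Eaf2 and Zbtb20 had -0.41 and 0.26. Of 9 tested genes of the niche that feeds plasma cells, 4 were above and 5 below 0, with a median of -0.07. Il6, a plasma cell survival cytokine, had 0.404 ± 0.176 CPM in Foxp3ΔJag1 nodes and 0.186 ± 0.0436 CPM in Foxp3Ctrl nodes (edgeR adjusted p = 0.953). Il6 was scarce, at no more than 0.603 CPM in any node, so its values rest on few reads. Cxcl13, the B cell follicle chemokine, averaged 149.6 CPM in Foxp3ΔJag1 nodes and 123 CPM in Foxp3Ctrl nodes, and Il10 averaged 0.884 CPM in Foxp3ΔJag1 nodes and 1.02 CPM in Foxp3Ctrl nodes.

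Without Foxp3Ctrl node 3, 22 of the 22 ER and secretory genes were below 0, with a median of -0.41, and 1 of them was called. This was Ell2, at -0.65 ± 0.07 (edgeR adjusted p = 0.0113). The immunoglobulin constant genes were again at 4 above and 8 below 0, with a median of -0.64, and 1 was called. This was Ighg2b, which had 676, 850.5 and 873 CPM in Foxp3ΔJag1 nodes, against 2034, 1774 and 399 CPM in the 3 Foxp3Ctrl nodes, at -1.30 ± 0.12 without the third (edgeR adjusted p = 0.00979) and -0.85 ± 0.67 with it (edgeR adjusted p = 0.953). Both genes were lowest in the node left out, so these calls are no test of genotype either. The other lists had no call without that node, with 7 of 15 mature B cell genes, 5 of 12 germinal centre genes, 9 of 12 other plasma cell genes and 7 of 9 niche genes below 0, and medians of 0.0065, 0.09, -0.10 and -0.13.

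The second comparison sets the tumour against its own draining node in the 3 Foxp3Ctrl mice. All 10 genes were called, 8 lower and 2 higher in tumours, and for each the 2 tissues did not overlap. Calls were common in this comparison, at 73.2% of the genes tested, made up of 37.6% lower and 35.6% higher among 18566, and 77.9% of all genes did not overlap between the tissues. The median log2 fold change of the 10 was -4.09, against -0.05 over all genes tested, and without Foxp3Ctrl node 3 it was -4.32 with the same 8 and 2 calls. The 8 lower genes ranged from Xbp1 at -1.31 ± 0.32 to Pou2af1 at -11.13 ± 0.24, and the 2 higher ones were Sdc1 and Fkbp11. Pou2af1 rests on 4 to 7 counts in a tumour, and its SE was larger with DESeq2, at 0.42, and with limma-voom, at 0.47.

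**Figure D4:**
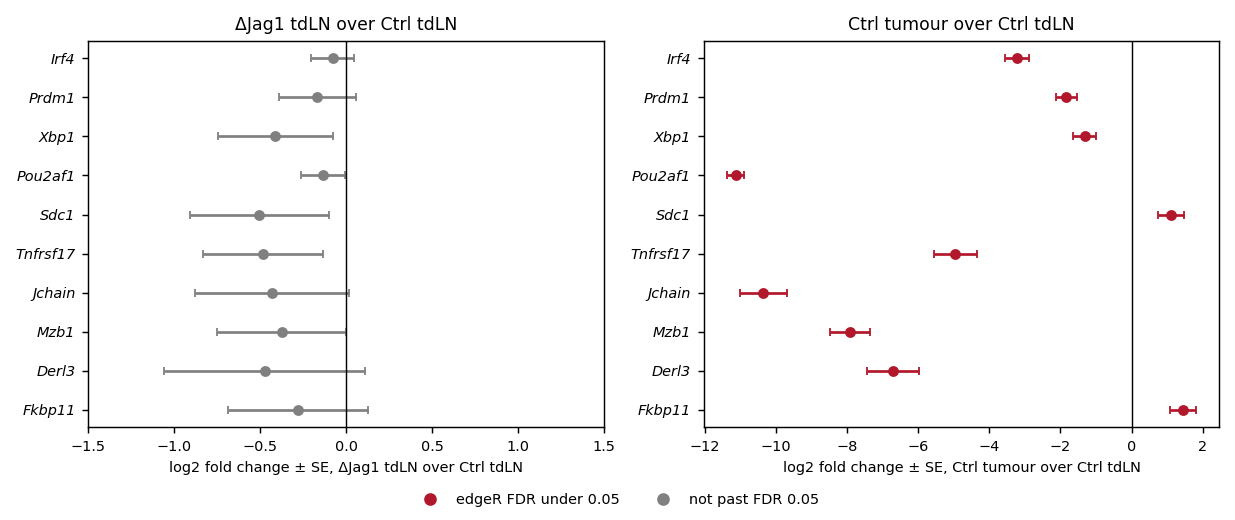
Log2 fold change with SE of each plasma cell gene in Foxp3ΔJag1 against Foxp3Ctrl nodes and in Foxp3Ctrl tumours against Foxp3Ctrl nodes. Every node value lies between -0.50 and -0.08 with none called, while the tumour values spread between -11.13 for Pou2af1 and 1.45 for Fkbp11 with all 10 called.

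Pou2af1, Jchain, Mzb1, Derl3 and Tnfrsf17 lay below 1 CPM in every tumour. Pou2af1 had 7, 4 and 4 counts in the 3 tumours, or 0.186, 0.0976 and 0.124 CPM, against 356, 334 and 282 CPM in Foxp3Ctrl nodes (edgeR adjusted p = 8.67e-08). Jchain had 0.346, 0.805 and 0.809 CPM in tumours, against 1141, 1081 and 424 CPM in Foxp3Ctrl nodes, a log2 fold change of -10.36 ± 0.66 (edgeR adjusted p = 2.25e-05). From the summed counts, nodes exceeded tumours 2395-fold for Pou2af1 (exact 95% interval 1452 to 4279) and 1379-fold for Jchain (1095 to 1762), intervals that cover counting error only. Mzb1 had 0.453, 0.488 and 0.996 CPM in tumours, against 199, 189.6 and 84.4 CPM in Foxp3Ctrl nodes, at -7.92 ± 0.56 (edgeR adjusted p = 3.63e-05). The lowest node stood far above the highest tumour for all 3 genes. Derl3 had 0.266, 0.391 and 0.156 CPM in tumours, against 32.9, 45.9 and 11.2 CPM in Foxp3Ctrl nodes, at -6.71 ± 0.73 (edgeR adjusted p = 0.000217). Tnfrsf17 rested on 3, 1 and 1 counts in tumours and 178 counts over the Foxp3Ctrl nodes, a ratio of nodes to tumours of 34.3 (exact 95% interval 14.4 to 106.9), with edgeR adjusted p = 0.000151.

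The regulators Irf4, Prdm1 and Xbp1 differed less between the tissues. Irf4 had 12.3, 5.61 and 12.9 CPM in tumours, against 106, 108 and 83.4 CPM in Foxp3Ctrl nodes, at -3.22 ± 0.33 (edgeR adjusted p = 0.000133). Prdm1 had 5.78, 3.61 and 4.20 CPM in tumours, against 20.6, 18.2 and 11.2 CPM in Foxp3Ctrl nodes, at -1.83 ± 0.29 (edgeR adjusted p = 0.000724). For both genes tumour 2 was the lowest library. Xbp1 had 119.9, 89.8 and 104 CPM in tumours, against 290.1, 354 and 155 CPM in Foxp3Ctrl nodes, at -1.31 ± 0.32 (edgeR adjusted p = 0.00924). Without the low-count filter, which brings the genes tested to 31788, Xbp1 was no longer called (edgeR adjusted p = 0.0531).

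Sdc1 and Fkbp11 were higher in tumours. Sdc1 had 62.4, 87.8 and 64.3 CPM in tumours, against 38.1, 45.7 and 18.2 CPM in Foxp3Ctrl nodes, a 2.16-fold difference (log2 1.11 ± 0.37, edgeR adjusted p = 0.0315). Every tumour lay above every node, but the call depended on several libraries: the adjusted p was 0.064 without tumour 1, 0.0856 without tumour 2, 0.0624 without tumour 3, 0.0577 without Foxp3Ctrl node 1 and 0.117 without the low-count filter. Fkbp11 had 22.6, 23.6 and 20.0 CPM in tumours, against 10.2, 10.5 and 4.09 CPM in Foxp3Ctrl nodes, a 2.73-fold difference (log2 1.45 ± 0.36, edgeR adjusted p = 0.00833), and it was called under every alternative run. Beside these values, epithelial genes summed to 35.3, 7.32 and 3.46 CPM in tumours, against 18.8, 50.7 and 163 CPM in Foxp3Ctrl nodes. Macrophage genes summed to 828, 576 and 725 CPM in tumours, against 736, 983 and 547 CPM in Foxp3Ctrl nodes. Melanocyte genes summed to 18533 to 24314 CPM in tumours and 10.8 to 37.3 CPM in Foxp3Ctrl nodes. The part of these cells in the Sdc1 and Fkbp11 values was not tested.

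The immunoglobulin and mature B cell lists were lower in tumours, and so was the T cell list. All 12 immunoglobulin constant genes and all 15 mature B cell genes were called lower in tumours, with medians of -10.18 and -9.40. The first median takes in Ighe, which had no count in any tumour, and is the same with Ighe set at a bound of 3 counts over the group. All 9 T cell genes were called lower as well, with a median of -5.01, so the drop was not particular to the B lineage. Among the constant genes, Iglc2 averaged 0.172 CPM in tumours and 203 CPM in Foxp3Ctrl nodes, Ighm 13.7 CPM in tumours and 2805 CPM in nodes, and Ighd 0.346 CPM in tumours and 868 CPM in nodes. Among the B cell genes, Blk averaged 0.146 CPM in tumours and 155 CPM in Foxp3Ctrl nodes, the receptor chain gene Cd79a 0.725 CPM in tumours and 780.1 CPM in nodes, and the transcription factor gene Spib 1.09 CPM in tumours and 361 CPM in nodes. Of 12 other plasma cell genes 9 were called lower and 2 higher, the latter being Cd9 at 0.79 and Zbtb20 at 0.66 (log2). Tnfrsf13b, which encodes the receptor TACI, had 3.47 CPM in tumours and 128 CPM in Foxp3Ctrl nodes. Cd28, which is also in the T cell list, had 2.20 CPM in tumours and 73.7 CPM in nodes. Ly6k had 0.0622 CPM in tumours and 4.79 CPM in nodes. Of 12 germinal centre genes 8 were called lower and 3 higher. Those higher were Ackr3, S1pr2 and Mki67, with log2 fold changes of 1.36, 1.14 and 0.55. The summed level of this list averaged 437 CPM in tumours and 516 CPM in Foxp3Ctrl nodes. Gcsam and Mef2b, both expressed in germinal centre B cells, had log2 fold changes of -5.62 and -5.48. Of 8 niche genes tested 6 were called lower and 1 higher, among them Cxcl12, a chemokine that holds plasma cells in their niche, at 35.1 CPM in tumours and 381 CPM in Foxp3Ctrl nodes, Cxcl13 at 0.970 CPM in tumours and 123 CPM in nodes, and Tnfsf13b, which encodes BAFF, at 1.55 CPM in tumours and 18.3 CPM in nodes.

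The ER and secretory genes did not follow the B lineage genes. Of 22 tested, 5 were called higher and 6 lower, with a median of -0.06, close to that of all genes tested, and without Foxp3Ctrl node 3 these were 5 and 8, with a median of -0.21. Pdia6, a disulfide isomerase, had 611 CPM in tumours and 233 CPM in Foxp3Ctrl nodes, at 1.44 (edgeR adjusted p = 0.000131). Ell2 had 10.9 CPM in tumours and 60.8 CPM in Foxp3Ctrl nodes, at -2.44 (edgeR adjusted p = 0.000172). Herpud1, which serves ER-associated degradation, had 54.2 CPM in tumours and 128 CPM in Foxp3Ctrl nodes, at -1.19 (edgeR adjusted p = 0.000175). The list as a whole summed to 5685, 4368 and 5377 CPM in tumours, against 4738, 4804 and 3159 CPM in Foxp3Ctrl nodes.

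Levels were also set per kilobase of merged exon (RPKM), which allows the 10 genes to be ordered. In Foxp3ΔJag1 nodes Jchain was first at 267 ± 62.3 RPKM, then Pou2af1 at 118 ± 14.1, Mzb1 at 102 ± 12.7 and Xbp1 at 63.1 ± 6.83 RPKM. In Foxp3Ctrl nodes Jchain was again first at 350.4 ± 158 RPKM, then Mzb1 at 130 ± 52.3, Pou2af1 at 127 ± 14.8 and Xbp1 at 82.0 ± 31.2 RPKM. Mzb1 and Pou2af1 overlapped in both groups and do not differ beyond their spread, and the same holds for Fkbp11 and Prdm1, at 2.59 and 2.72 RPKM in Foxp3ΔJag1 nodes and 3.06 and 2.98 RPKM in Foxp3Ctrl nodes. Irf4, Derl3 and Sdc1 lay between, at 19.5, 11.2 and 6.46 RPKM in Foxp3ΔJag1 nodes and 20.2, 15.0 and 8.94 RPKM in Foxp3Ctrl nodes, and Tnfrsf17 was last at 1.38 RPKM in Foxp3ΔJag1 nodes and 1.90 RPKM in Foxp3Ctrl nodes. In Foxp3ΔJag1 nodes Derl3 and Sdc1 also overlapped. In Foxp3Ctrl nodes Derl3 overlapped both Irf4 and Sdc1, Xbp1 overlapped Mzb1, and Tnfrsf17 overlapped both Fkbp11 and Prdm1. In tumours the order was another: Xbp1 led at 32.2 ± 4.64 RPKM, then Sdc1 at 18.8 ± 3.72, Fkbp11 at 8.15 ± 0.693 and Irf4 at 2.10 ± 0.827 RPKM, with ranges that did not overlap. Prdm1 had 0.812 and Mzb1 0.532 RPKM there, and their ranges overlapped. Jchain had 0.260 RPKM and Derl3 0.136 RPKM, also overlapping, while Tnfrsf17 at 0.0554 RPKM overlapped both Derl3 and Pou2af1, the last at 0.0534 RPKM.

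How alike the genes were was measured as the root mean square difference of centred log2(CPM + 1) values, where 0 is an identical profile. Over the 6 nodes the closest of the 10 were Xbp1 and Mzb1 at 0.12, Prdm1 and Tnfrsf17 at 0.13 and Sdc1 and Jchain at 0.14, and the farthest apart were Derl3 and Pou2af1 at 0.60. Tnfrsf17 had only 0.874 to 2.26 CPM in nodes, where the added 1 narrows its profile, so its distances depend on that offset. Among 18430 other genes, those most like Jchain over the 6 nodes were Pon3 at 0.15, Igkv12-98 at 0.15, Creld2 at 0.18, Aldh1l1 at 0.21 and Hsp90b1 at 0.21. Of these, Creld2 and Hsp90b1 encode ER proteins and Igkv12-98 is a kappa light chain variable segment. Over all 9 libraries, where the gap between tumour and node sets most of the profile, the genes most like the mean of the 10 were Ccr4, Tent5c, Tnfsf11, Syndig1l and Igkj1, between 0.20 and 0.23 among 19401 genes. Ccr4 encodes a T cell chemokine receptor and Tnfsf11 the cytokine RANKL, and Igkj1 is a kappa light chain joining segment.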

How the data were processed

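The authors deposited raw read counts per gene, with nodes in a first table and tumours in a second. The submitters' processing notes name Trimmomatic 0.36, STAR 2.5.2b, featureCounts, Subread 1.5.2 and GRCm38. How strand was handled in counting, and with which annotation, was not given in the sources used here. Overlapping and antisense genes may therefore share reads. Per the labels' protocols, either poly(A) selection or removal of ribosomal RNA preceded library construction. Of 49315 gene identifiers, 49056 matched GENCODE M21, the source of symbols, positions and exon lengths. Promoter windows come from RefSeq on GRCm38.p6.

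Of 13 samples in the labels, 9 libraries were used. A further 3 columns of per-sample values matched no sample and were not used. CPM used total counts without normalization factors. Between replicates, counts differed well beyond sampling noise (chi-square per degree of freedom 17.08 to 75.42), so each counted as 1 sample, and p-values measure the spread between these samples. Intervals are exact, at 95%, and cover counting error only.

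Tests were run in R 4.3.3 with edgeR 4.0.16, using its quasi-likelihood test, TMM normalization, filterByExpr, robust estimates and Benjamini-Hochberg adjustment at 0.05, on the 6 nodes for genotype and on the 6 Foxp3Ctrl libraries for tissue. The step was also tested on simulated data. Alternatives were DESeq2 1.42.0 and its size factors, library size only, limma-voom (limma 3.58.1), every gene with a count, genes reaching 1 CPM in 3 libraries or more, a non-robust fit, a joint fit of the 9 libraries, the replicate number as a block and leaving out each replicate. Foxp3Ctrl nodes and tumours are paired, since their library names carry the same mouse codes, and the departures of node and tumour from their group means correlated within mice at -0.038, 0.128 and 0.057.

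The 10 genes and the other lists were chosen with earlier results of these data known. The genes named from the other lists are the 3 with the smallest p in each list and comparison (2 of these are not reported here), with Jag1 and Foxp3 as a check, and lists of other cell types are given as sums over their genes. Foxp3 had 23.8, 17.8 and 17.5 CPM in Foxp3ΔJag1 nodes, against 12.2, 17.9 and 18.0 CPM in Foxp3Ctrl nodes. The genes most like the 10 are the 5 with the smallest root mean square difference.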

Additional observations from a re-analysis of the deposited data

How the results depend on the processing

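In nodes, 0 of the 10 plasma cell genes was called under each alternative run, with 1 adjusted p under 0.1, that of Mzb1 without Foxp3Ctrl node 3. Only leaving out a library turned a sign: Irf4 was 0.0007 without Foxp3ΔJag1 node 3 and 0.0044 without Foxp3Ctrl node 2, and Prdm1 was 0.0113 without Foxp3Ctrl node 1 (log2). With each library left out in turn, Irf4 lay between -0.21 and 0.0044, Prdm1 between -0.40 and 0.0113, Derl3 between -0.88 and -0.01, Sdc1 between -0.82 and -0.21, Tnfrsf17 between -0.78 and -0.12, Jchain between -0.77 and -0.21, Xbp1 between -0.70 and -0.14, Mzb1 between -0.69 and -0.18, Fkbp11 between -0.62 and -0.05 and Pou2af1 between -0.25 and -0.03, the lowest in each case without Foxp3Ctrl node 3. The replicate number is only a shared number between genotypes, since deviations of same-numbered nodes correlated at -0.172, 0.026 and -0.138. With it as a replicate block the median of the 10 was -0.27 and all genes called lower numbered 5. Over all genes in nodes, 6 were called higher and 1 lower, against 27 and 43 with DESeq2, 13 and 3 without a low-count filter, and 2 lower with limma-voom; leaving out a library gave 5 to 13 higher and 1 to 10 lower, the most without Foxp3ΔJag1 node 2 and Foxp3Ctrl node 3. In the tissue comparison, 8 lower and 2 higher of the 10 held except that 1 was higher with no filter (7 lower, Xbp1 and Sdc1 lost) and 1 to 2 when a library was left out, while lower stayed at 8; with a CPM of at least 1 Tnfrsf17 was not tested and 7 were lower. Sdc1 ran between 0.78 and 1.41 (log2) over the alternatives. Blocking by mouse changed no call among the 10. The cause of these differences was not tested. Depth limits Tnfrsf17, Pou2af1 and Derl3 in tumours, where each library holds 1 to 16 counts.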

Other observations

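Of 8 plasmacytoid dendritic cell genes, 6 were called lower and 1 higher in Foxp3Ctrl tumours than in Foxp3Ctrl nodes. Siglech, a surface lectin of these cells, averaged 1.05 CPM in Foxp3Ctrl tumours and 71.7 CPM in Foxp3Ctrl nodes, and Ccr9 averaged 0.763 CPM in Foxp3Ctrl tumours and 32.7 CPM in Foxp3Ctrl nodes. Bst2, which many cell types express, was the gene called higher, at 425 CPM in Foxp3Ctrl tumours and 121 CPM in Foxp3Ctrl nodes. Among the niche genes Fn1, which encodes the matrix protein fibronectin, was the gene called higher, at 391 CPM in Foxp3Ctrl tumours and 143 CPM in Foxp3Ctrl nodes, while the adhesion molecule gene Vcam1 averaged 22.5 CPM in Foxp3Ctrl tumours and 226 CPM in Foxp3Ctrl nodes. These genes were named after their values were seen.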
